A study of Mus musculus with 6 samples.

Results

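The genes described here are 10 genes that mark white fat cells: Adipoq, Lep, Retn, Cfd, Plin1, Plin4, Cidec, Fabp4, Pparg and Adrb3. They were picked by symbol out of 54309 genes in the deposited transcript tables, and TPM (a level corrected for transcript length and scaled to the same total in every library) and estimated read counts were summed per symbol in each pool. Their levels across the pools were among the values that chose them, so how they varied together is given as a description with no test. All 10 had a CPM (reads scaled to the size of the library) of at least 0.5 in every pool and entered the comparison of the sexes.

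Each library came from left sciatic nerves (whole by the labels, the proximal segment by the study's methods) of C57BL/6 mice aged 6 to 8 weeks, taken 24 h after a sham operation in which the nerve was exposed at mid-thigh and left uncut. There were 3 female pools (F1, F2 and F3) and 3 male pools (M1, M2 and M3), each of 2 mice, so no value belongs to a single animal. The study asked whether the nerve differs between the sexes, and in these libraries female pools were compared with male pools. Nerves after axotomy were not analysed here.

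Estimated read pairs per library ran between 55949876 and 66285694 in female pools and between 59165914 and 78473057 in male pools. Xist, the noncoding RNA of the inactive X, was at 120 to 124 TPM in female and 0.0245 to 0.557 TPM in male pools, and the Y-linked Ddx3y at 0.0513 to 0.540 TPM in female and 40.5 to 55.9 TPM in male pools, so each pool matched its labelled sex. 1 pool stood apart: the summed level of 14 fast skeletal muscle genes was 3846 TPM in F2, against 40.6 to 259 TPM in the others. For each of the 10 genes, the fold change between the sexes and the correlation with Adipoq are given below with and without F3, which was highest for most of them.

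White adipocytes store triglyceride in a single large lipid droplet, coated with proteins such as the perilipins, and release fatty acids from it when adrenergic receptors are stimulated. They also secrete hormones, among them adiponectin and leptin, and their differentiation is driven by the nuclear receptor PPARγ together with factors of the C/EBP family. In peripheral nerve, fat cells lie in the epineurium, the outer sheath, while several of their genes, such as Fabp4 and Pparg, are also used by endothelial cells or macrophages.

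The label was checked against 2 other lists. Of 16 other adipocyte identity genes, 15 passed the filter on low counts, and their summed TPM was 727, 933 and 1044 in F1, F2 and F3 and 797, 838 and 772 in M1, M2 and M3. Of these sums Sncg alone gave 417, 516 and 505 TPM in the female pools and 442, 476 and 497 TPM in the male pools. Its Pearson r with Adipoq was 0.171, so much of the sum came from a gene that did not follow Adipoq. Ucp1, the uncoupling protein that defines brown and beige fat, was at 0.10 to 0.323 TPM and did not pass the filter. Of the 12 brown and beige genes 9 did pass, the most abundant being Ebf2, a transcription factor, at a mean of 26.5 TPM, and Cox7a1, a subunit of cytochrome c oxidase that muscle also uses, at 23.2 TPM, and Prdm16, a regulator of brown fat identity, was at 6.26 TPM. Cidea, a droplet protein of the adipocyte identity list that is abundant in brown fat, was at 0 to 0.144 TPM (Ucp1, Prdm16 and Cidea were named after their values were seen). The layers of the nerve were not separated, so where in the nerve the fat cells lay was not measured. In such bulk samples fewer fat cells and less RNA per fat cell cannot be told apart.

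Together the 10 genes made up 988, 1255 and 1875 TPM in F1, F2 and F3, against 998, 952 and 920 TPM in M1, M2 and M3. Most of that sum came from Fabp4 and Cfd, whose mean levels of 531 and 466 TPM lay at the 98.5th and 98.3rd percentile of the 16310 genes tested, whereas Lep, at 1.36 TPM, lay at the 12.5th. F3 was the highest pool for 9 of the 10 genes, against 16.3% of all genes tested, and F3 was highest with M3 lowest for 6 of them (Adipoq, Retn, Plin1, Plin4, Cidec and Adrb3), against 4.40% of all genes.

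**Figure D1:**
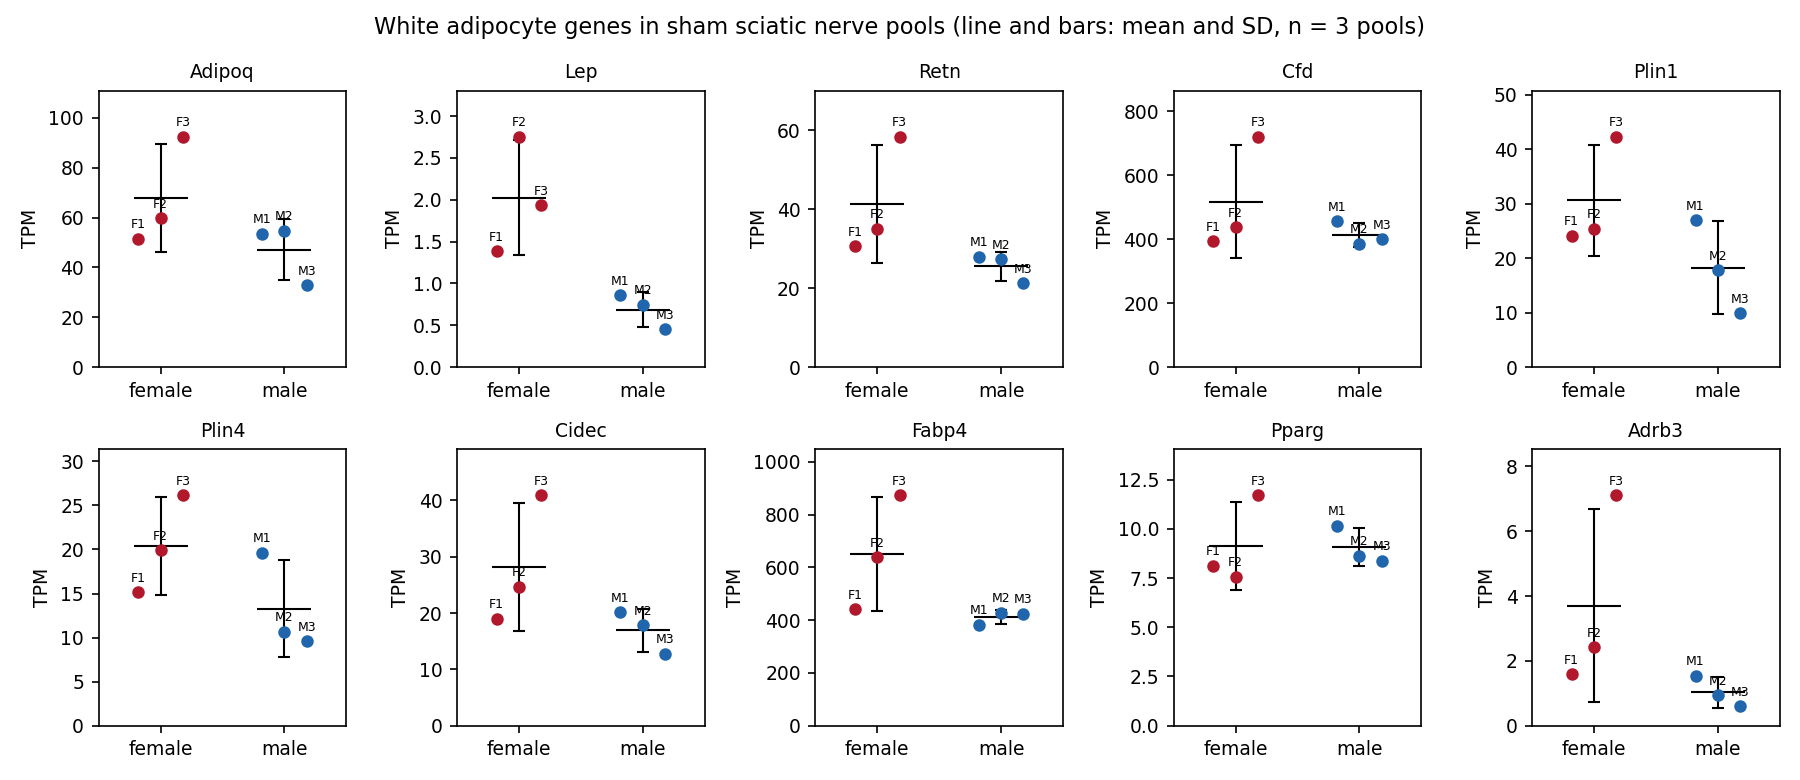
TPM of each of the 10 genes in the 3 female and 3 male pools (points, labelled by pool), with the mean and SD of each sex; every vertical axis starts at 0. F3 is the top point in every panel but Lep, where F2 is highest, and Lep, Retn, Fabp4 and Adrb3 have every female pool above every male pool.

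Promoters are printed for 3 of the genes: for Adipoq, against which the others are set, for Lep, which had the smallest p between the sexes, and for the downstream start of Pparg, whose transcript is taken up below. Each is the 120 bases before the first base of the gene's named transcript, read 5′ to 3′ along the gene from GRCm39. Capitals mark matches on either strand to CCAAT (the CCAAT box) or TTGCNNAA (a motif of the C/EBP kind). The Adipoq window lies at chr16:22965166-22965285 on the + strand, that of Lep at chr6:29060096-29060215 on the + strand and that of Pparg at chr6:115398763-115398882 on the + strand, and none of them overlaps an annotated exon.
Adipoq-201: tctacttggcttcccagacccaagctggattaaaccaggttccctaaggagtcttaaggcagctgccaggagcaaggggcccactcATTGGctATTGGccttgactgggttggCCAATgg
Lep-201: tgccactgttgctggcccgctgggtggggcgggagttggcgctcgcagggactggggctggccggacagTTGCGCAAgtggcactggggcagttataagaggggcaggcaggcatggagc
Pparg-201: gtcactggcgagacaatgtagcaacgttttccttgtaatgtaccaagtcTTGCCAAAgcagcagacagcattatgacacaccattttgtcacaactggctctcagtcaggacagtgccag

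Windows of this kind were searched for 11 transcripts of 9 of the genes. Those of Pparg-202 and Pparg-204 lie wholly, and that of Retn-201 by 18 bases, in annotated exons. As a background, shares were taken over 32851 RefSeq promoters (GRCm38.p6) of the same length. TTGCNNAA was found in 2 of the 11 windows, 51 bases before the start of Lep-201, where the site reads the same on both strands, and 71 bases before that of Pparg-201, and in 4.15% of all promoters. CCAAT was found in 2 windows, 3 times in that of Adipoq-201 and once in that of Pparg-204, and in 21.3% of all promoters. The nuclear receptor motif AGGTCA, its direct repeat with a spacer of 1 base, and TATAAA were in none of the 11 windows. They were in 6.91%, 0.0244% and 6.34% of all promoters. The looser TTNCNNAA, which includes TTGCNNAA, was in 5 of the 11 windows and in 18% of all promoters. These are matches of letters only.

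Among the secreted products, Adipoq encodes adiponectin, a hormone made by fat cells nearly alone, and it served as the gene the others were set against. Adipoq (ENSMUSG00000022878; chr16:22964106-22976810) was at 51.5, 59.8 and 92.5 TPM in F1, F2 and F3 and at 53.5, 54.7 and 33.0 TPM in M1, M2 and M3. F3 was at 1.83 times, and M3 at 0.528 times, the mean of the 5 other pools, the remaining 4 pools lay close together, and the sexes overlapped. Adipoq averaged 67.9 ± 21.6 TPM in the female pools, against 47.0 ± 12.2 TPM in the male pools (SD, n = 3 each), and the log2FC of females over males was 0.53 ± 0.29 (SE) with an adjusted p of 0.844 by edgeR's quasi-likelihood test. It was 0.23 without F3 and 0.36 without M3. Nearly all of its reads were assigned to Adipoq-201, a transcript of 3 exons that carried 99.6% of the mean level.

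Lep encodes leptin, the hormone that reports fat stores to the brain. Lep (ENSMUSG00000059201; chr6:29060216-29073877) was at 1.38, 2.75 and 1.94 TPM in F1, F2 and F3 and at 0.861, 0.748 and 0.453 TPM in M1, M2 and M3, from 154, 253 and 268 reads in the females and 136, 99 and 55 reads in the males. Every female pool lay above every male pool, and here F2, not F3, was highest. Of the F2 value, 0.641 TPM rested on the short transcript Lep-202, to which 5.2 reads were assigned over all pools, and Lep-201 alone gave 1.38, 2.11 and 1.94 TPM in the female pools and the same values as the gene in the male pools. The log2FC of females over males was 1.40 ± 0.26 (SE), with an unadjusted p of 0.000632 and an adjusted p of 0.366 by edgeR, which misses the threshold of 0.1. DESeq2 put Lep past the threshold with an adjusted p of 0.00016, as did limma-voom with sample weights (0.0868) and edgeR without the low count filter (0.0237), and the adjusted p ranged up to 0.752 over 13 alternatives, in all of which Lep was higher in females. Its log2FC was 1.28 without F2, the pool with muscle RNA, and 1.34 without F3.

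Retn encodes resistin, which in the mouse is secreted by fat cells. Retn (ENSMUSG00000012705; chr8:3705324-3710689) was at 30.7, 35.1 and 58.4 TPM in F1, F2 and F3 and at 27.9, 27.3 and 21.3 TPM in M1, M2 and M3. The sexes did not overlap, though F1 exceeded M1 by little, and F3 and M3 were again the extremes. The log2FC was 0.73 ± 0.26 (SE), with an adjusted p of 0.791 by edgeR, and it was 0.38 without F3. Cfd encodes adipsin, the serine protease that activates the alternative complement pathway. Cfd (ENSMUSG00000061780; chr10:79726668-79728496) was at 394, 438 and 721 TPM in F1, F2 and F3 and at 456, 385 and 400 TPM in M1, M2 and M3. Only F3 stood out, at 1.74 times the mean of the other pools, and M3, the pool lowest for Adipoq, was at 0.835 times the mean of the others. The log2FC was 0.38 ± 0.22 (SE), with an adjusted p of 0.846 by edgeR, and without F3 it was 0.08.

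The lipid droplet proteins followed the same pools. Plin1 (ENSMUSG00000030546; chr7:79369966-79382718), the perilipin that guards the droplet of fat cells against lipases, was at 24.1, 25.4 and 42.3 TPM in F1, F2 and F3 and at 26.9, 17.9 and 9.86 TPM in M1, M2 and M3. Plin4 (ENSMUSG00000002831; chr17:56406617-56416931), another droplet coat protein, was at 15.1, 19.9 and 26.2 TPM in the same female pools, against 19.6, 10.7 and 9.57 TPM in the male pools. Cidec (ENSMUSG00000030278; chr6:113400691-113412721), which transfers lipid between droplets so that they merge, was at 19.0, 24.6 and 40.9 TPM in them, against 20.2, 17.8 and 12.8 TPM in the male pools. For all 3 genes F3 was highest and M3 lowest and the sexes overlapped, since M1 lay above F1. Their log2FC of females over males was 0.68 ± 0.42, 0.65 ± 0.35 and 0.80 ± 0.35 (SE), with adjusted p of 0.864, 0.845 and 0.828 by edgeR, for Plin1, Plin4 and Cidec in that order. Without F3 the log2FC was 0.31 for Plin1, 0.43 for Plin4 and 0.38 for Cidec, and it was 0.42 for Plin1 without M3 and 1.04 for Plin4 without M1.

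Fabp4 (ENSMUSG00000062515; chr3:10268785-10273737) encodes the fatty acid carrier aP2, which is abundant in fat cells and is also made by capillary endothelium and macrophages. It was at 442, 639 and 874 TPM in F1, F2 and F3 and at 382, 428 and 424 TPM in M1, M2 and M3. The female pools were spread over a wide range, at 652 ± 216 TPM, while the male pools lay close together, at 411 ± 25.7 TPM (SD, n = 3 pools each). In TPM the sexes did not overlap, F1 being just above M2. The log2FC was 0.63 ± 0.27 (SE), with an adjusted p of 0.822 by edgeR, and it was 0.30 without F3.

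Adrb3 (ENSMUSG00000031489; chr8:27715443-27740925) encodes the β3-adrenergic receptor, through which noradrenaline starts lipolysis in rodent fat cells. It was at 1.58, 2.42 and 7.12 TPM in F1, F2 and F3, from 110, 138 and 456 reads, and at 1.54, 0.942 and 0.599 TPM in M1, M2 and M3, from 128, 76 and 43 reads. Adrb3 had the widest range of the 10 genes, 11.9 times between F3 and M3, and F3 alone was 5.02 times the mean of the other pools, while F1 and M1 were nearly equal. Of the F3 value, 1.97 TPM rested on Adrb3-204, a short noncoding transcript to which 34.3 reads were assigned over all pools. The coding Adrb3-201 varied 6.62 times between pools. For the whole gene the log2FC was 1.66 ± 0.56 (SE), with an adjusted p of 0.757 by edgeR and 0.0417 by DESeq2. The edgeR log2FC was 0.87 without F3.

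Pparg (ENSMUSG00000000440; chr6:115337675-115468268) encodes PPARγ, the nuclear receptor on which fat cell differentiation depends. It was at 8.14, 7.58 and 11.7 TPM in F1, F2 and F3 and at 10.2, 8.63 and 8.38 TPM in M1, M2 and M3. Its pools differed by 1.55 times at most, the smallest range of the 10 genes, and F1 and F2 were the lowest pools, so the sexes overlapped fully. Pparg averaged 9.15 ± 2.25 TPM in the female pools, against 9.06 ± 0.967 TPM in the male pools (SD, n = 3 each), with a log2FC of -0.02 ± 0.18 (SE) and an adjusted p of 0.992 by edgeR, and of -0.26 without F3.

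In the comparison of female with male sham pools, then, 0 of the 10 genes passed an adjusted p of 0.1 in edgeR, where 0.0613% of all genes tested did (10 of 16310), and 0.0245% did so with the higher level in females. At an unadjusted p under 0.05 there were 3 of 10, Lep, Retn and Adrb3, against 6.11% of all genes, and DESeq2 called 2, Lep and Adrb3, against 0.978% of all genes. The log2FC was above 0 for 9 of the 10, against 50.6% of all genes, with a median of 0.67 over the 10 and 0.0016 over all genes tested. In TPM every female pool lay above every male pool for 4 of the 10 (Lep, Retn, Fabp4 and Adrb3), against 4.43% of all genes, and in normalised CPM for 3 of the 10, against 5.16%. The reverse order was seen for 0 of the 10, against 6.57% of all genes in TPM and 6.04% in CPM. The 10 genes vary together, so these counts are not 10 separate observations. Xist and Ddx3y, each near 0 in 1 sex, also missed the threshold in this fit (adjusted p = 0.24 and 0.16), so a gene that was not called may still differ.

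**Figure D2:**
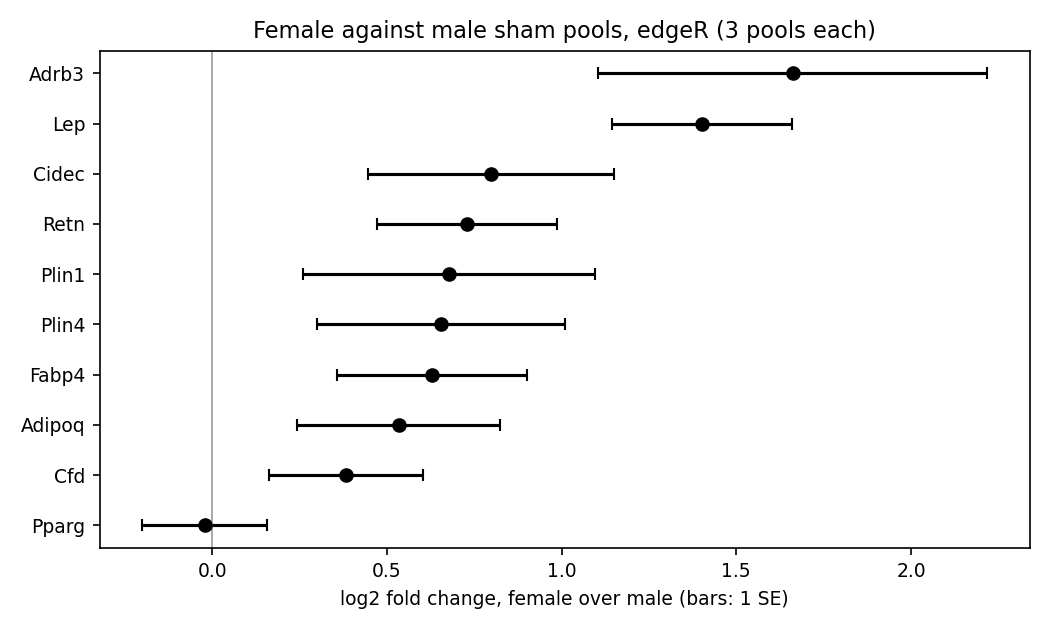
Log2 fold change of female over male sham pools for each gene (points) with 1 SE (bars), from edgeR on 3 pools per sex; the grey line marks 0. Adrb3 (1.66) and Lep (1.40) lie farthest from 0, with the widest bar on Adrb3, and Pparg lies at -0.02.

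Which genes moved as 1 fat cell signal was described by the Pearson r of each with Adipoq, over the 6 pools, in log2 normalised CPM. The 6 points share only their libraries, and with so few of them 1 or 2 pools can set r. Cidec (r = 0.966), Plin1 (0.953), Retn (0.947) and Adrb3 (0.947) followed Adipoq most closely, Fabp4 (0.837), Plin4 (0.823) and Cfd (0.803) less so, and Lep (0.794) and Pparg (0.556) were lowest. Thus 7 of the 9 genes reached an r of 0.8, as did 3.61% of all genes tested, and 4 of the 9 reached 0.9, as did 0.914%. Spearman's rho, which uses ranks only, was 0.829 for Cidec, Plin4 and Fabp4, 0.771 for Retn and Adrb3, 0.714 for Lep and Plin1, 0.60 for Cfd and 0.143 for Pparg.

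Leaving out F3, the pool with the most Adipoq, spread the values of r with Adipoq further apart. Over the other 5 pools r stayed at 0.902 for Plin1, 0.897 for Cidec, 0.839 for Retn and 0.833 for Adrb3, and Lep (0.775) and Plin4 (0.667) changed moderately. It was 0.436 for Fabp4, 0.0971 for Cfd and -0.272 for Pparg, so that 4 of the 9 genes were at 0.8 or more, against 7.13% of all genes. Without M3 in place of F3, r was higher for Cfd (0.957), Fabp4 (0.949) and Pparg (0.747) and lower for Plin4 (0.705) and Lep (0.596), and 6 of the 9 were at 0.8 or more. Without F2, the pool with muscle RNA, r was 0.879 for Lep and 0.843 for Fabp4. Without F3 and M3, the pools farthest from the median of Adipoq, only Cidec (0.846) and Fabp4 (0.885) were at 0.8 or more. The pools left held only 51.5 to 59.8 TPM of Adipoq. Over so narrow a range r cannot show whether the likeness of the others rested on F3 and M3.

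**Figure D3:**
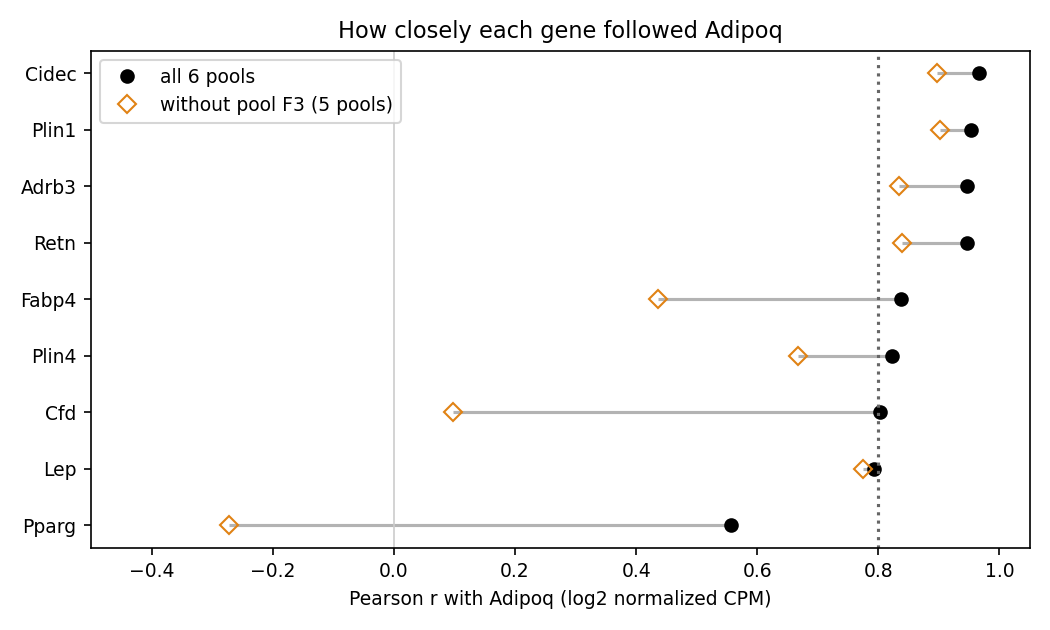
Pearson r of each of the other 9 genes with Adipoq in log2 normalised CPM, over all 6 pools (black circles) and over 5 pools without F3 (open diamonds); the dotted line is at 0.8. Cidec, Plin1, Adrb3 and Retn stay right of the line in both, and Fabp4, Cfd and Pparg shift furthest to the left, to 0.436, 0.0971 and -0.272.

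The ratio of each gene to Adipoq within a pool, on the TPM scale, varied least for Retn and Cidec. Retn stayed at 0.50 to 0.647 times Adipoq and Cidec at 0.326 to 0.443 times it, ranges of 1.29 and 1.36 times between pools. Cfd was at 7.65, 7.33 and 7.79 times Adipoq in F1, F2 and F3 and at 8.52, 7.05 and 12.1 times it in M1, M2 and M3. Fabp4 was at 8.59, 10.7 and 9.45 times Adipoq in the females and at 7.14, 7.84 and 12.9 times it in the males. Both ratios were highest in M3, where Adipoq was lowest, as was that of Retn. Pparg too had its highest ratio in M3, at 0.254, against 0.127 to 0.190 in the other pools. The ratio varied 1.69 times between pools for Plin1, 1.72 for Cfd, 1.80 for Fabp4, 1.88 for Plin4 and 2.01 for Pparg, and most for Lep (3.36) and Adrb3 (4.47), so a high r with Adipoq did not go with a steady ratio for Adrb3.

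A straight line of TPM on Adipoq TPM was fitted for each gene. For Pparg the line met the axis, where Adipoq would be 0, at 63.8% of the mean level of Pparg (49.7% to 102% when each pool was left out in turn). For Cfd it did so at 27.1%, but with a range of -2.89% to 86.9% by the pool left out, and for Fabp4 at 6.80%, with a range of -26.6% to 50.2%. For Retn it was at -11.8%, with a range of -29.9% to 22.9%, and for Cidec at -25.7%, with a range of -40.1% to -1.94%. Only for Pparg did the range stay above 0 among these 5 genes, so a level of Cfd or Fabp4 apart from Adipoq could not be told from none in 6 pools. On the log2 scale the slopes on Adipoq were 0.29 for Pparg, 0.60 for Cfd and 0.84 for Fabp4, and 1.43 for Lep and 2.17 for Adrb3, which varied more than Adipoq did.

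**Figure D4:**
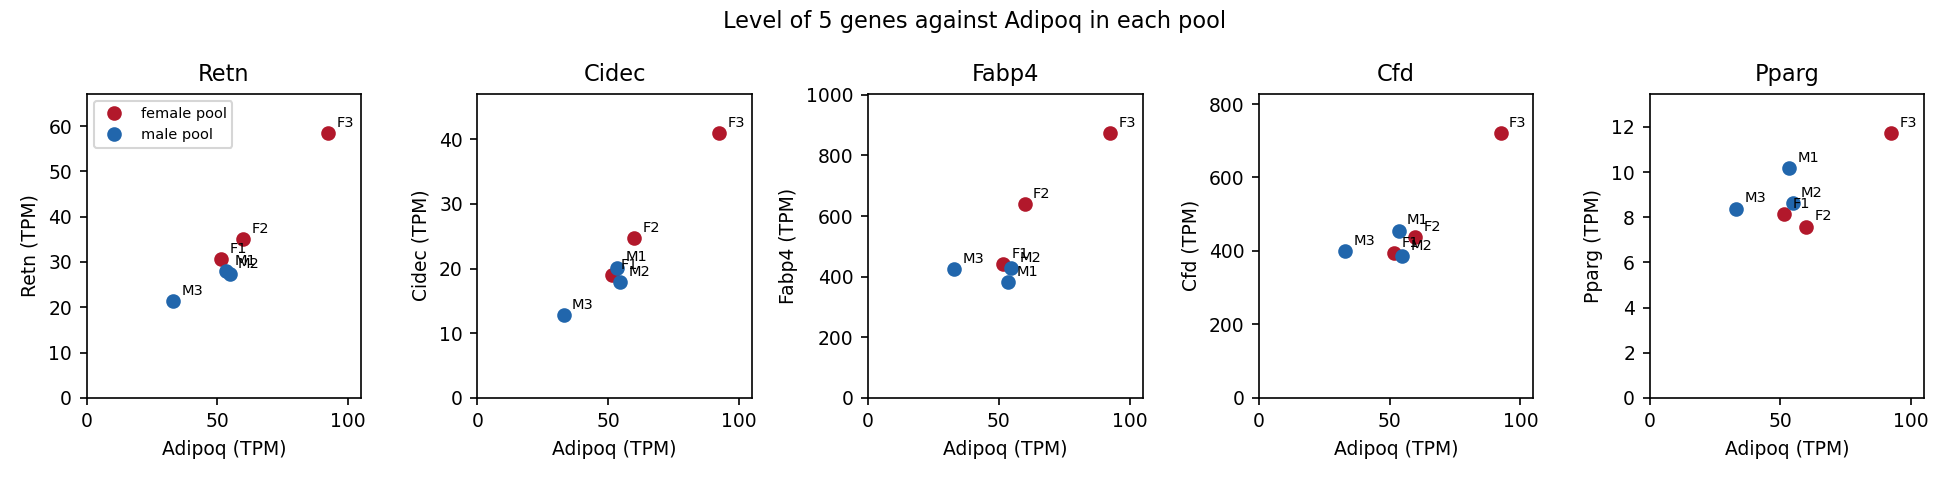
TPM of Retn, Cidec, Fabp4, Cfd and Pparg (vertical axes, from 0) against TPM of Adipoq (horizontal axes, from 0), 1 point per pool, females in red and males in blue. Retn and Cidec are lowest in M3 and highest in F3, while M3 at 33.0 TPM of Adipoq has as much Fabp4 and Cfd as pools with over 50 TPM of Adipoq.

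The transcripts of Pparg are listed separately because the gene has several promoters. Pparg-201 starts at position 115398883 of chromosome 6 (its window is printed above) and encodes 505 residues, the form known as PPARγ2 that is typical of fat cells. Pparg-202 and Pparg-204 start upstream, at 115337912 and 115339253, and encode the 475 residues of PPARγ1, which many cell types make. Pparg-201 was at 3.37, 3.25 and 5.60 TPM in F1, F2 and F3 and at 4.50, 4.15 and 3.58 TPM in M1, M2 and M3, or 44.7% of the mean level of the gene. For transcripts r with Adipoq was taken on log2 TPM. It was 0.650 for Pparg-201, and 0.0889 without F3, against 0.609 and -0.0247 for the whole gene on the same scale.

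Of the upstream forms, Pparg-204 was at 2.52, 2.29 and 3.25 TPM in F1, F2 and F3 and at 1.68, 2.02 and 1.36 TPM in M1, M2 and M3. Every female pool lay above every male pool for Pparg-204, and its r with Adipoq was 0.890, or 0.774 without F3. The share of all transcripts with that order of the sexes was not counted, and for genes in TPM it was 4.43%. Pparg-202 was at 1.81, 2.04 and 2.63 TPM in the female pools, against 3.71, 2.46 and 3.14 TPM in the male pools, where only F3 exceeded the lowest male pool, and its r was -0.218. Female pools thus had the higher values of Pparg-204 and, with F3 as the exception, the lower values of Pparg-202. Both share all but their first exons, so the split of reads between them is an estimate by Salmon, and no test was made on transcripts.

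**Figure D5:**
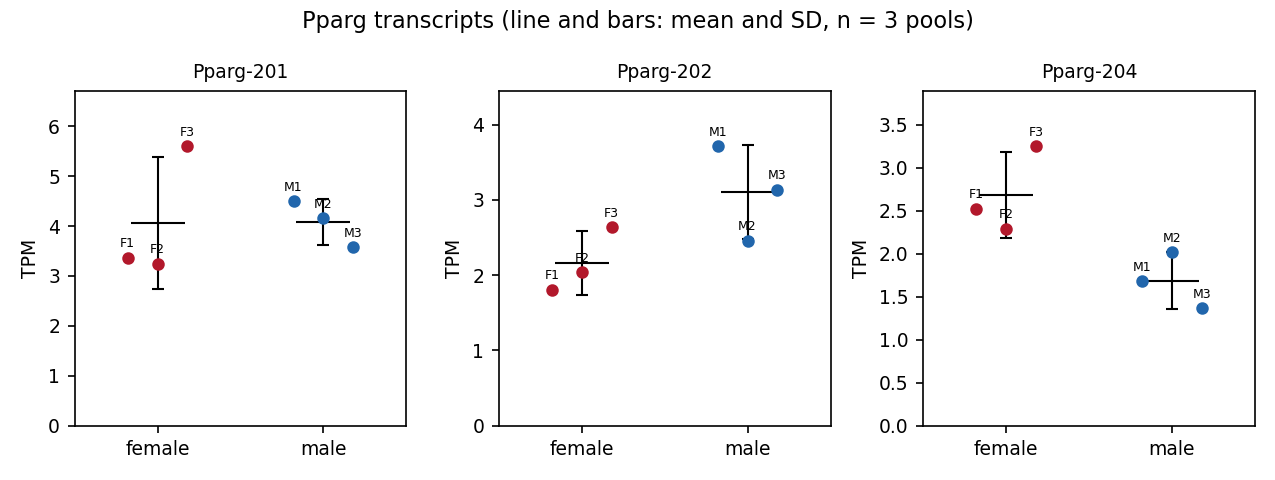
TPM of the 3 most abundant Pparg transcripts in each pool (points, labelled by pool) with the mean and SD of each sex, axes from 0. Pparg-204 has all females above all males, Pparg-202 has its 2 highest values in males, and Pparg-201 has its highest value in F3 (5.60).

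Among all 36 transcripts of the 10 genes, 19 had a mean of at least 1 TPM, and 18 of these belong to the genes other than Adipoq. Of the 18, 13 had an r of at least 0.8 with Adipoq, and 7 had one without F3, against 3.69% and 17.3% of all transcripts with a mean of at least 1 TPM that were above 0 in every pool. Fabp4-202, an unspliced form with a retained intron, was at 4.26, 5.67 and 10.6 TPM in F1, F2 and F3 and at 3.77, 4.25 and 2.71 TPM in M1, M2 and M3. It followed Adipoq with r = 0.962 (0.916 without F3), against 0.780 (0.388 without F3) for Fabp4-201, the spliced form, which held 99.0% of the level. M3 had the least Fabp4-202 of all pools but not the least Fabp4-201. For Cfd, whose 2 transcripts start at the same base and encode 258 (Cfd-202) and 259 residues (Cfd-201), r was 0.873 for Cfd-202 and 0.703 for Cfd-201, and 0.682 and -0.205 without F3.

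The 10 genes with the profile most like Adipoq were sought among 1239 genes whose log2 CPM differed by at least 1 between pools. They were Serpina3c (r = 0.990), Fgf10 (0.985), A530020G20Rik (0.976), Car3 (0.974), Prlr (0.973), Npy1r (0.972), Lgals12 (0.971), Slc7a10 (0.957), Dnah12 (0.956) and A530016L24Rik (0.953), each over 6 pools. Without F3 their r was 0.873 to 0.996, but they were picked by r over pools that include these. Without F3 and M3 only Fgf10 (0.962), Car3 (0.959) and Lgals12 (0.810) were at 0.8 or more, and Slc7a10 was lowest (-0.414). Dnah12 had a mean of only 0.077 TPM. Car3, which encodes a carbonic anhydrase, was the most abundant, at 194, 287 and 385 TPM in F1, F2 and F3 and at 223, 240 and 154 TPM in M1, M2 and M3. Fgf10, a growth factor, was at 1.04, 1.32 and 1.65 TPM in F1, F2 and F3 and at 0.989, 1.04 and 0.616 TPM in M1, M2 and M3. Both ordered the pools nearly as Adipoq did. The likeness of Prlr, the prolactin receptor, held on the count scale only, since its TPM was highest in M3 (0.472).

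Some other genes of the fat cell programme also followed Adipoq. Of all genes tested, 3.61% reached an r of 0.8 with Adipoq, and 7.13% did so without F3. Among the 15 adipocyte identity genes that passed the filter, 5 had an r of at least 0.8 (Car3, Acvr1c, Trarg1, Aqp7 and Adig), and Sncg, the most abundant of that list at 475 TPM, had 0.171. Without F3, 2 of the 15 were at 0.8 or more, Car3 (0.929) and Aqp7 (0.874). Of 12 receptor genes and their partners 5 did: the insulin receptor Insr (0.878), the adiponectin receptor Adipor2 (0.843), Ghr, Lepr and Prkar2b, while Adipor1, the other adiponectin receptor, had an r of -0.629, and without F3 there were 2, Insr (0.935) and Ghr (0.974). Of 12 genes of lipolysis and droplet turnover 2 did, the lipases Lipe and Mgll (r = 0.924 for Mgll) and 0 without F3 (0.753 and 0.792), while Plin2, the droplet protein that most cell types use, had -0.301 at a mean of 359 TPM. Of 17 genes of lipogenesis 1 did, Pck1 (0.706 without F3), a count near the share of all genes, and the abundant Scd1 (152 TPM) had -0.06.

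Of 9 genes of fatty acid uptake, Cd36, Lpl and Gpihbp1 reached 0.8, but 0 did so without F3, and Fabp5, another fatty acid carrier, had -0.615, at 332, 293 and 321 TPM in F1, F2 and F3 and 330, 318 and 437 TPM in M1, M2 and M3. Of 14 progenitor genes Pdgfra alone reached it (0.837 without F3), a count near the share of all genes, and none of 9 thermogenic genes did. Acvr1c, Trarg1, Aqp7, Ghr, Lepr, Prkar2b, Lipe, Pck1, Lpl, Gpihbp1 and Pdgfra were named after their values were seen.

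Between the sexes, 0 of the 178 other genes tested in all 15 lists were called by edgeR, with 18 (10.1%) at an unadjusted p under 0.05, against 6.11% of all genes. Limma-voom called 2 (1.12%), against 0.159% of all genes, and DESeq2 called 10 (5.62%), against 0.978%. The median log2FC of females over males was 0.24 over the adipocyte identity genes, 0.12 over those of lipogenesis, 0.04 over those of lipolysis and 0.06 over the receptors, against 0.67 over the 10 genes and 0.0016 over all genes tested. In the progenitor list the smallest p belonged to Klf15, a transcription factor, at 30.7, 33.1 and 34.5 TPM in F1, F2 and F3 and 21.4, 21.9 and 25.6 TPM in M1, M2 and M3 (log2FC 0.57 ± 0.10 (SE), adjusted p = 0.337), and to Dlk1, which holds back fat cell differentiation, with a log2FC of 0.89 ± 0.17 (SE) and an adjusted p of 0.384.

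Markers of other cell types were set beside the fat cell signal. None of 14 endothelial, 14 macrophage, 14 Schwann cell, 14 muscle, 9 neutrophil or 8 lymphocyte markers reached an r of 0.8 with Adipoq, and 2 of 12 fibroblast and matrix markers did, Gsn (0.934) and Pdgfra. All 6 erythroid markers did, against 3.61% of all genes tested. Without F3, 0 of the 6 erythroid markers were at 0.8 or more, Gsn (0.809) and Pdgfra were, and so were Esam of the endothelial (0.823), Retnlg of the neutrophil (0.932) and Cd3e of the lymphocyte markers (0.817), named after their values were seen. Without F3 7.13% of all genes tested were at 0.8 or more, so 1 gene in each of these 3 lists is near that share. The summed TPM of the erythroid markers was 12848, 8047 and 30733 in F1, F2 and F3 and 14092, 13379 and 4958 in M1, M2 and M3, so that F3 was highest and M3 lowest, as for Adipoq, and the sum followed Adipoq with r = 0.885 (0.711 without F3). The least abundant of them, Slc4a1, was at 0.105 to 1.80 TPM and none was at 0. Spearman's rho of the sum with Adipoq was 0.60. F2 had more Adipoq (59.8 TPM) than any pool but F3, yet a lower erythroid sum than any pool but M3. Blood RNA was thus highest and lowest in the same pools as Adipoq, and its part in the result was not tested.

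Macrophage and endothelial markers matter for Fabp4 and Pparg, which those cells also use. The 14 macrophage markers summed to 3913 to 4119 TPM in females and 4453 to 5741 TPM in males, with no overlap. Of single genes tested, 6.57% showed that order in TPM, and its share among sums of this kind was not counted. Lyz2, at a mean of 2437 TPM, weighed most in that sum, and 4 of the 14 markers were higher in females. The sum had an r of -0.422 with Fabp4 and 0.0321 with Pparg, and of -0.349 and 0.469 without F3. The 14 endothelial markers summed to 429 to 505 TPM in females and 426 to 561 TPM in males, with r of 0.161 for Fabp4 and 0.509 for Pparg (-0.0599 and 0.572 without F3). The muscle sum, high in F2 alone, had an r of 0.190 with Fabp4 and 0.421 with Lep, the gene that was highest in F2. Without F3 the muscle sum had an r of 0.783 with Fabp4 and 0.612 with Lep. Pparg came closest to the summed genes of lipolysis and droplet turnover (r = 0.990) and of progenitors (0.918), against 0.545 for the other adipocyte identity genes, all over 6 pools and as descriptions. Without F3 these were 0.977, 0.824 and -0.193. The lipolysis sum varied by only 1.06 times between pools, and Cav1, Plin2 and Cavin1, which many cell types use, made up 76.2% of it. Cavin1 was named after its values were seen.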

How the data were processed

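Per the labels, poly-A selected, strand-specific libraries were made from RNA of 2 pooled nerves each and sequenced as paired reads. The authors trimmed reads with Trimmomatic 0.39 and estimated transcript levels with Salmon (1.5.2 in the submitters' processing notes). The deposited tables give, per transcript, an estimated count that need not be whole and a TPM, which divides by effective length and sums to the same total in every library. The authors deposited no normalization between libraries.

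Here 140789 transcripts were summed to 54309 genes by the identifiers in the files. Estimated counts were rounded, a gene was kept where 3 or more pools had a CPM of 0.5 or more (16310 genes), and females were compared with males in edgeR 4.0.16 (TMM, robust quasi-likelihood fit, no covariate) with Benjamini-Hochberg adjustment over all genes at 0.1. Likeness to Adipoq is Pearson's r of log2 CPM (TMM, prior count 2) for genes, of log2 TPM for transcripts, and of a gene's log2 CPM with the log2 summed TPM for lists. Coordinates are from GENCODE M39 on GRCm39, which holds 35 of the 36 transcripts of the 10 genes. The promoter of 1 gene is not reported here. The alternatives were DESeq2 1.42.0, limma-voom (limma 3.58.1), RLE factors, no composition factor, no filter, a stricter filter, transcript length offsets, the replicate number as a block, each pool left out, and other scales, anchors and thresholds for r. Fits ran in R 4.3.3 and tables were made in Python 3.11.15.

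The 10 genes and the 15 other lists were chosen with earlier results of these data known. Besides the 10 genes, the text names, from each list it describes by gene, the 2 genes with the highest mean TPM or up to 2 with the smallest p, and the 10 genes nearest to Adipoq. Other genes are marked as named after their values were seen. In simulated data with 16177 genes in the step, made after the 3 female and 3 male sham pools, edgeR called 56% of 50 genes changed 1.5-fold, 88% of 75 changed 2-fold and 100% of 75 changed 4-fold, with 23 unchanged genes among 192 calls. Counts were simulated for each gene on its own, so shifts shared by many genes of a pool, as in F2 and F3, were left out. In the real pools even Xist and Ddx3y were not called, so these shares do not give the power of the real comparison. No 2 pools of a sex were alike within sampling noise (chi-square of 25.4 to 68.8 per gene).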

Additional observations from a re-analysis of the deposited data

How the results depend on the processing

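The edgeR count of 0 genes among the 10 stayed at 0 with RLE factors, no composition factor, the stricter filter, length offsets and every pool left out. It was 2 with DESeq2 (Lep, log2FC 1.40, and Adrb3, 1.67), and 1 with limma-voom (Lep, 1.36) and without the low count filter (Lep, 1.40). Over all genes the count of 10 was 159 with DESeq2, 26 with limma-voom, 49 without the filter and 4 with the stricter filter, and 3 to 8 with each pool left out. The direction was kept under every alternative for 9 of the 10 genes. Pparg, at -0.0218, had a log2FC of 0.0146 with length offsets, and of -0.259 to 0.0882 when a pool was left out (above 0 without F1, F2 or M1). Lep and Adrb3 failed the stricter filter. The cause of these differences between tools was not tested.

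The count of 7 of 9 genes with r of at least 0.8 was 3 with Spearman's rho, 2 without F3 and M3, 4 at an r of 0.9, 4 to 8 with each pool left out (4 without F3) and 6 to 8 under the other scales and anchors.

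The replicate numbers did not pair the pools: deviations of same-numbered pools correlated at -0.18, -0.128 and -0.0971. With the replicate number as a block 0 of the 10 genes and 5 genes in all were called.

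Even large differences, such as those of Xist and Ddx3y, were not called by edgeR on these 3 pools of 2 mice per sex, and why was not tested. The lowest genes, Lep and Adrb3, rest on 951 to 965 reads over all pools.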
